A study of Mus musculus with 4 samples.

Results

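Transcripts of 10 genes of the skin's shedding machinery were compared between cultured Glut1-deficient and wild-type keratinocytes, Glut1 being a glucose transporter. They were 8 epidermal kallikrein genes (Klk5, Klk6, Klk7, Klk8, Klk10, Klk11, Klk13 and Klk14), the protease gene St14 and the inhibitor gene Spink5. They were taken by name from 30142 genes that had an array row annotated with exactly 1 gene symbol. Each of the 10 had a single such row, so no choice between rows was needed. The Glut1-deficient cells came from mice labelled as Glut1-deficient in keratinocytes alone, and the reference cells came from wild-type mice. Both groups were on a C57BL/6J background and 1 week old. The labels name neither the deleted part of the gene nor the driver of the deletion. In both groups, primary keratinocytes were grown in a serum-free keratinocyte medium with 0.05 mM CaCl2, hydrocortisone, EGF, pituitary extract and insulin, replated at 2000000 cells and collected a day later. Each genotype had 4 mice and 2 arrays (Affymetrix MTA-1_0, 1 colour), and each array held RNA of 2 plates of that genotype combined at random. The spread between arrays is therefore a spread between pools and, with 2 arrays a group, the precision is low.

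Kallikreins are secreted serine proteases encoded side by side in 1 cluster. In the upper epidermis they are released as inactive precursors, become active outside the cell and cut the proteins that hold dead cells together, so that the surface layer can shed. St14 encodes matriptase, a membrane-bound serine protease that starts kallikrein activation in mouse epidermis lacking the inhibitor. Spink5 encodes LEKTI, a secreted inhibitor of several kallikreins, whose loss in humans causes Netherton syndrome, with excessive shedding. Kallikreins and LEKTI reach the cell surface through lamellar granules, the lipid-filled secretory bodies of granular keratinocytes.

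In the Glut1-deficient cells the inhibitor gene Spink5 and the kallikrein genes Klk10, Klk7 and Klk11 were higher, and Klk8 was lower. Spink5 was up 6.48-fold and Klk10 6.25-fold, while Klk7 was up 2.56-fold, Klk11 2.01-fold and Klk8 was 0.553 of its wild-type level. St14 and Klk6 did not pass the test. Klk5, Klk13 and Klk14 lay at or below array background in both genotypes. In all, 4 of the 10 genes were higher and 1 was lower at a Benjamini-Hochberg adjusted p under 0.05 from limma, a linear model fitted across 30604 rows. Over all those rows 7.22% were called, 4.11% higher and 3.11% lower, and among rows above background on all 4 arrays 14.4% were called. Leaving out any 1 array lowered the count to 2 or 3 of the 10 genes, none of them lower, and to between 314 and 1214 rows. Testing every row of the table, unnamed rows included, left 0 of the 10. The median log2 fold change of the 10 genes was 0.08, against -0.01 over all 30142 genes. Changes are differences of mean deposited log2 signal, Glut1-deficient minus wild type, with limma's standard error (SE).

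Slc2a1, the gene for Glut1, had log2 signals of 12.09 and 12.01 on the Glut1-deficient arrays, against 13.26 and 13.40 on the wild-type arrays. It fell by 1.28 (SE 0.10, limma adjusted p = 0.00754), to 0.413 of the wild-type level, so its signal was reduced but still far above background. Whether the row's probes lie in the deleted part is not known here. Leaving out the first Glut1-deficient array ended that call (adjusted p = 0.0508, against 0.00545 to 0.0648 over all alternatives). The median signal of the arrays was between 4.19 and 4.24. Background was read on each array from 23 control rows, and their 95th percentile, between 4.36 and 4.87, is called the floor below. Of the 10 genes 7 were above the floor on all 4 arrays. Taking the highest control row as the floor instead, a choice made after the data were seen, left 5.

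Keratinocyte transcripts were high, and some markers of other cell types were above the floor. Basal keratinocyte markers were above the floor in 6 of 6 genes on all arrays, and Krt5 had 18.30 and 17.98 on the Glut1-deficient arrays, against 18.61 and 18.69 on the wild-type arrays. Of these 6, Col17a1 passed as lower, by 0.86 (limma adjusted p = 0.0181), and Krt5, Krt14, Trp63, Itga6 and Itgb4 did not pass. At an unadjusted limma p under 0.05 there were 5 of the 6, all but Trp63, and those 5 were lower. Over all rows 6720 of 30604 reached that level. The basal markers had a median log2 fold change of -0.47. Their summed log2 signal, mostly that of Krt5, was 18.99 and 18.72 on the Glut1-deficient arrays, against 19.30 and 19.41 on the wild-type arrays. Of 6 suprabasal markers Sbsn rose by 1.70 and Ivl fell by 1.36 (adjusted p = 0.0291 and 0.0251), Krt1, Krt10 and Krtdap did not pass, and the late marker Lor was below the floor on all arrays. Their summed signal on the log2 scale was 9.77 and 9.89 on the Glut1-deficient arrays, against 9.50 and 9.61 on the wild-type arrays. It is mostly that of Sbsn on the Glut1-deficient arrays and that of Ivl on the wild-type arrays, so it cannot stand for suprabasal content. Of 6 melanocyte markers Pmel passed as higher (adjusted p = 0.0341), and Dct, Mlana, Tyrp1, Tyr and Sox10 did not pass (adjusted p from 0.0670 to 0.803). Their summed log2 signal, which is mostly that of Tyrp1, was 12.37 and 11.11 on the Glut1-deficient arrays, against 10.52 and 10.00 on the wild-type arrays. Fibroblast markers summed to 7.09 and 7.36 on the Glut1-deficient arrays, against 6.62 and 6.61 on the wild-type arrays. Dcn passed as higher among those 5, Col1a1 and Col1a2 did not pass, and Col3a1 and Lum were below the floor on all arrays. Of 3 endothelial markers Kdr rose by 3.60, Pecam1 did not pass and Cdh5 was below the floor on all arrays. Their sum, which is mostly that of Kdr, was 10.19 and 9.58 on the Glut1-deficient arrays, against 6.75 and 6.94 on the wild-type arrays. Pecam1 had 4.37 and 4.26 on the Glut1-deficient arrays, against 4.60 and 4.66 on the wild-type arrays. Of these values only that of wild-type array 1 was above the floor. All 7 leukocyte markers, Cd3g, Ptprc and Lyz2 among them, were below the floor on all arrays, as were 4 of 5 hair follicle and sebocyte markers, Krt25 and Krt71 among them but not Krt27. The part of these cell types, or of the share of suprabasal cells, in the changes of Spink5 and the kallikreins was not tested.

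**Figure D1:**
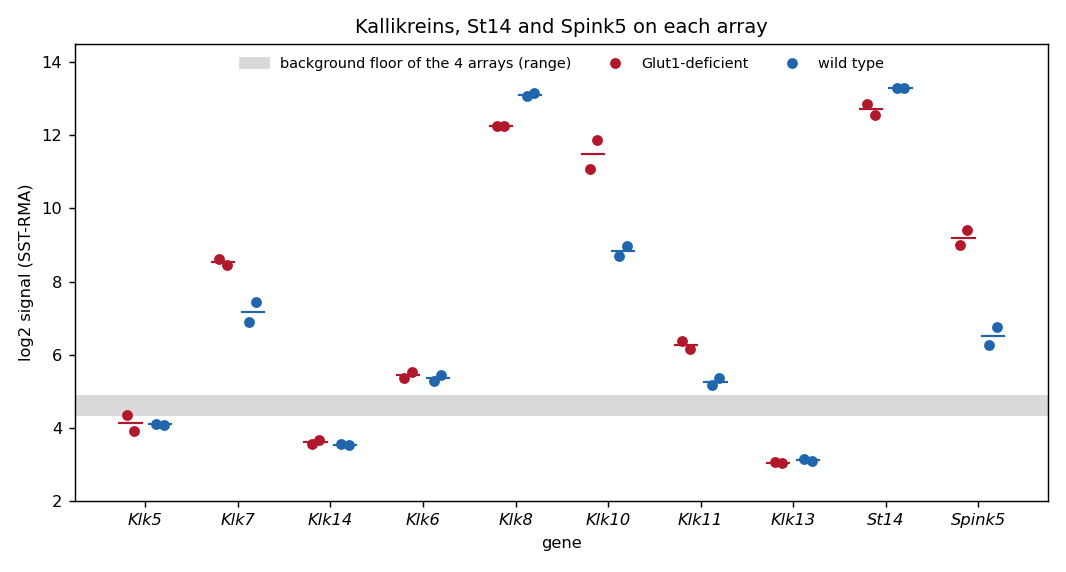
Log2 signal of each gene on each array (points), with Glut1-deficient arrays in red to the left of wild-type arrays in blue, and group means as short lines. The grey band is the range of the background floor over the 4 arrays. Klk5, Klk14 and Klk13 lie at or under it in both groups, and the 2 groups stand farthest apart for Spink5 and Klk10.

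Spink5 had log2 signals of 8.99 and 9.40 on the Glut1-deficient arrays, against 6.26 and 6.74 on the wild-type arrays. Both Glut1-deficient arrays were above both wild-type arrays, with 2.25 log2 units between the nearest pair, while arrays of a genotype differed by at most 0.49. Groups did not overlap in 49.7% of all rows. The gene rose by 2.70 (SE 0.22, 95% interval 2.14 to 3.25, n = 2 arrays per group, limma adjusted p = 0.00754). Among all genes, this was rank 39 from the largest rise. The call held whichever array was left out, with adjusted p-values from 0.0104 to 0.0429 and changes from 2.45 to 2.94. These are bulk samples, so a change in RNA per cell cannot be told apart from a change in the share of cells that make the transcript.

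Among the kallikreins that are the best known shedding enzymes, Klk7 was the only one above the floor. It encodes a chymotrypsin-like protease that cuts corneodesmosin and desmocollin 1. Klk7 had log2 signals of 8.60 and 8.45 on the Glut1-deficient arrays, against 6.90 and 7.45 on the wild-type arrays. The groups did not overlap, as in 49.7% of all rows, and the nearest pair was 1.01 apart, with a spread of 0.15 between the Glut1-deficient arrays and 0.55 between the wild-type arrays. Klk7 rose by 1.36 (SE 0.20, 95% interval 0.85 to 1.86, limma adjusted p = 0.0245). Leaving out either Glut1-deficient array ended the call (adjusted p = 0.123 without array 1, 0.0761 without array 2), as did leaving out wild-type array 1 (0.0540). The adjusted p spanned 0.0159 to 0.123 over all alternatives, and the change 1.08 to 1.63.

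Klk5 and Klk14 encode trypsin-like proteases, and in humans KLK5 is held to start the cascade by activating itself, KLK7 and KLK14. Klk5 signals were 4.34 and 3.91 on the Glut1-deficient arrays, against 4.10 and 4.08 on the wild-type arrays. Klk14 signals were 3.55 and 3.67 on the Glut1-deficient arrays, against 3.55 and 3.52 on the wild-type arrays. Klk13, another trypsin-like member, had 3.05 and 3.04 on the Glut1-deficient arrays, against 3.14 and 3.09 on the wild-type arrays. All these values were at or under the array's floor, so no fold is given for the 3 genes, and whether they changed was not detectable here. Their adjusted p-values were 0.953, 0.782 and 0.777.

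Klk10 had the widest rise among the kallikreins. The encoded protein has the kallikrein fold, but little proteolytic activity has been ascribed to it. Klk10 had log2 signals of 11.09 and 11.88 on the Glut1-deficient arrays, against 8.71 and 8.97 on the wild-type arrays. The Glut1-deficient arrays differed from each other by 0.78, more than for any other of the 10 genes, yet the nearest pair across genotypes was 2.12 apart. Klk10 rose by 2.64 (SE 0.27, 95% interval 1.95 to 3.34, limma adjusted p = 0.0125), rank 44 from the largest rise among all genes. With an array left out the change was 2.25 to 3.04 and the adjusted p 0.0256 to 0.0458, so the call held in all 4 such fits.

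Klk11, a trypsin-like kallikrein, was nearer to background. Its log2 signals were 6.38 and 6.16 on the Glut1-deficient arrays, against 5.17 and 5.35 on the wild-type arrays. The groups did not overlap, as in 49.7% of all rows. Klk11 rose by 1.01 (SE 0.13, 95% interval 0.69 to 1.33, limma adjusted p = 0.0181). Both wild-type values were above the floor but not above the highest control row, between 5.12 and 5.73. With that stricter floor the rise of the means is a bound, at least 1.74-fold, which leaves out sampling error. The measured 95% interval begins at 1.61-fold. Leaving out Glut1-deficient array 1 ended the call (adjusted p = 0.0804), as did leaving out either wild-type array (0.0832 without array 1, 0.0531 without array 2). The adjusted p spanned 0.0121 to 0.0983 over all alternatives.

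Klk8 moved the other way. It encodes neuropsin, a trypsin-like protease found in upper epidermis and in brain. Klk8 had log2 signals of 12.26 and 12.26 on the Glut1-deficient arrays, against 13.07 and 13.17 on the wild-type arrays. Both Glut1-deficient arrays were lower, by 0.80 at the nearest pair, and groups did not overlap in 49.7% of all rows. Klk8 fell by 0.85 (SE 0.10, 95% interval -1.10 to -0.61, limma adjusted p = 0.0150). The change lay between -0.90 and -0.80 whichever array was left out, but the call was lost in each of those fits. The adjusted p was 0.0738 and 0.0505 when Glut1-deficient array 1 or 2 was left out and 0.0671 and 0.0741 when wild-type array 1 or 2 was, and it spanned 0.0103 to 0.0893 over all alternatives. Klk6, a trypsin-like protease also made by oligodendrocytes, had 5.35 and 5.53 on the Glut1-deficient arrays, against 5.27 and 5.44 on the wild-type arrays. Its groups overlapped, and its log2 difference was 0.09 (95% interval -0.21 to 0.39, limma adjusted p = 0.779).

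St14, the activator gene, had log2 signals of 12.86 and 12.56 on the Glut1-deficient arrays, against 13.29 and 13.29 on the wild-type arrays. Both Glut1-deficient arrays were below both wild-type arrays, by 0.44 at the nearest pair, and groups did not overlap in 49.7% of all rows. The log2 difference was -0.58 (SE 0.13, 95% interval -0.91 to -0.26), with an unadjusted p of 0.00572 and a limma adjusted p of 0.0645, so it did not pass. It passed when dim rows were left out of the test, with an adjusted p of 0.0412 when rows under the median level were dropped and 0.0419 among rows above the floor on 2 or more arrays. The range over all alternatives was 0.0412 to 0.221.

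**Figure D2:**
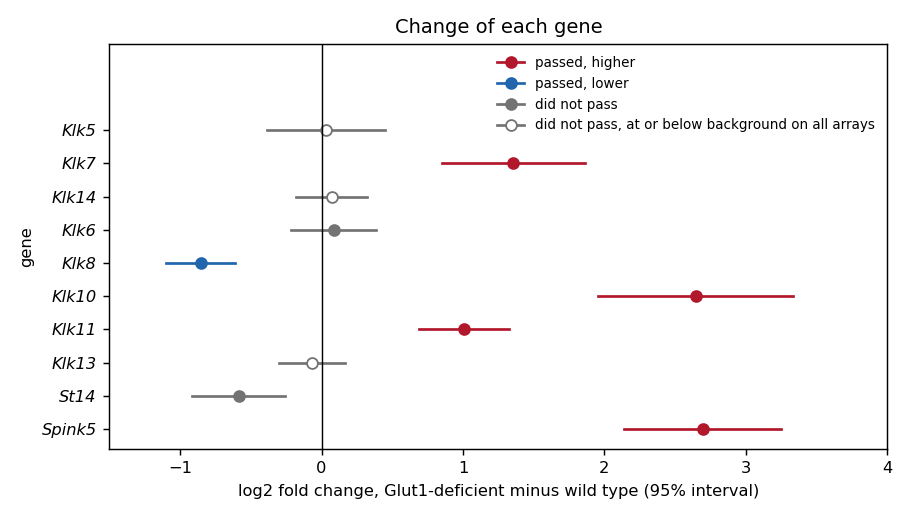
Log2 fold change of each gene, Glut1-deficient minus wild type, with limma's 95% interval (lines). Red and blue mark genes that passed the test as higher or lower, grey those that did not, and open points the 3 genes at or below background on all arrays. Spink5 and Klk10 have intervals above 1.9, Klk8 lies at -0.85, and the interval of St14 (-0.91 to -0.26) is below 0 although the gene did not pass after adjustment.

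The 8 kallikrein genes belong to 1 cluster on chromosome 7, so the changes can be read along it. Klk1 and the Klk1b genes, also on chromosome 7, were left out of the order used here. In RefSeq order the other genes run Klk14, Klk13, Klk12, Klk11, Klk10, Klk9, Klk8, Klk7, Klk6, Klk5, Klk4 and Klk15. The genes that passed lay in the middle of this order, from Klk11 to Klk7, with Klk9 among them. Klk9 had log2 signals of 5.63 and 5.85 on the Glut1-deficient arrays, against 5.28 and 5.55 on the wild-type arrays, and did not pass (log2 difference 0.32, SE 0.14, limma adjusted p = 0.270). Klk8, which fell, lies between Klk10 and Klk7, which rose, with only Klk9 between it and Klk10. Klk12, Klk4 and Klk15 were at or below the floor on all 4 arrays, as were Klk14, Klk13 and Klk5.

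**Figure D3:**
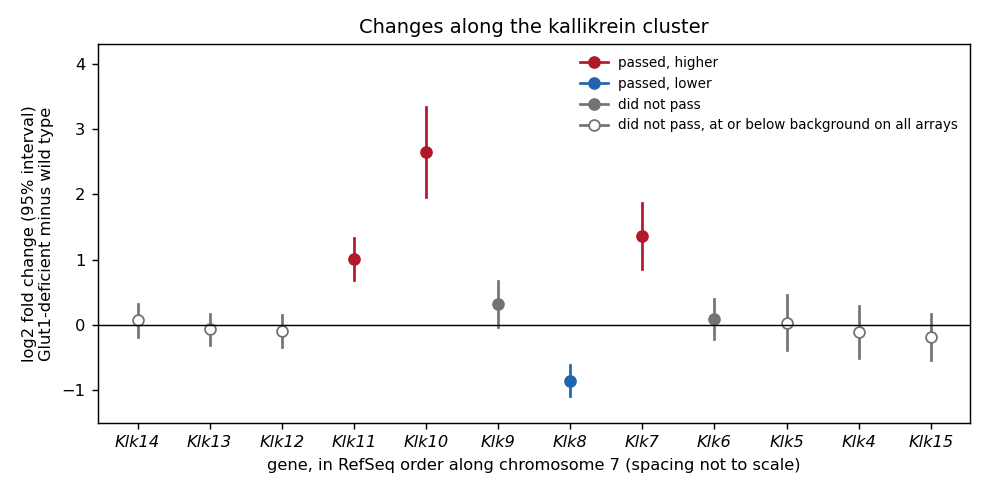
Log2 fold change with 95% interval of 12 kallikrein genes in RefSeq order along chromosome 7, evenly spaced. Red points passed as higher, the blue point passed as lower, grey points did not pass, and open points were at or below background on all arrays. Klk1 and the Klk1b genes of the same chromosome are not shown. The changes are in the middle of the 12 genes shown, with Klk8 at -0.85 between Klk10 at 2.64 and Klk7 at 1.36.

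The starts of these 3 neighbours that moved in opposite directions are shown here for comparison. Each window holds 250 bases before the annotated start and 50 bases after it, from RefSeq (GRCm38.p6), read 5′ to 3′ on the + strand. Klk10 is at chr7:43780804-43781103, Klk8 at chr7:43797327-43797626 and Klk7 at chr7:43811044-43811343. Capitals mark matches to any of 6 motifs searched on both strands, namely the core promoter box TATAAA, its variant TTAAAA, the AP-1 motif TGANTCA, the ATF4 and C/EBP composite core TGATGNAA, the GRHL motif AACCNGTT and the AP-2 motif GCCNNNGGC.
Klk10: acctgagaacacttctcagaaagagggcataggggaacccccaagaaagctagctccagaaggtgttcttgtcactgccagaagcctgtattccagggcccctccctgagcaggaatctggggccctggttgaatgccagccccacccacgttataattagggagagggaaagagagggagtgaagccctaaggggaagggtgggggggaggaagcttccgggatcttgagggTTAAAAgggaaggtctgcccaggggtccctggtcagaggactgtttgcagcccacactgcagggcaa
Klk8: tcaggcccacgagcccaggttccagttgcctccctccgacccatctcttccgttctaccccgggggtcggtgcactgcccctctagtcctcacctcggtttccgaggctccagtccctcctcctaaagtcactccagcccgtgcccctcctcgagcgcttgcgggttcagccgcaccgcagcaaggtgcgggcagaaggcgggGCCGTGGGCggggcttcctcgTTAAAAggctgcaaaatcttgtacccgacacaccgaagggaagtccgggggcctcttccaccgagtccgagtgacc
Klk7: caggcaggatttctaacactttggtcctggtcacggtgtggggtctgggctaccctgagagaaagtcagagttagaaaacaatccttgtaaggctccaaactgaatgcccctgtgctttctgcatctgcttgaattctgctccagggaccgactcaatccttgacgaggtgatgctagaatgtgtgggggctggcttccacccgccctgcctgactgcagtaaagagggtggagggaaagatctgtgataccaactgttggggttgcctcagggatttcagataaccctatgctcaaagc
The Klk10 and Klk8 windows each held TTAAAA, starting at position -17 in Klk10 and at position -26 in Klk8, counted from the annotated start, and Klk8 also held an AP-2 match at position -47. The Klk7 window held no match to the 6 motifs. The search covered RefSeq windows of the 8 kallikreins, 10 windows in all since Klk6 and Klk11 have more than 1 start. Spink5 was left out of the search, and no window was at hand for St14. TTAAAA was in 4 of the 10 windows (Klk6, Klk8, Klk10 and Klk11), against 19.2% of 32851 mouse windows of the same length. In Klk6 it started at position -68 and in Klk11 at position -233, farther from the annotated start than in Klk8 and Klk10. TGATGNAA was in 1 (Klk5) and GCCNNNGGC in 1 (Klk8), against 3.97% and 16.6%. None held TATAAA, found in 13.6% of mouse windows, the AP-1 motif, found in 7.81%, or the GRHL motif, found in 2.09%. A match of letters is a description of the window and not a binding site.

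Of the other kallikreins, 15 of 18 listed were analysed, and none passed the test (median log2 fold change 0.01). At an unadjusted p under 0.05 there were also 0, against 6720 of 30604 rows overall. On all 4 arrays 13 of the 15 were at or below the floor, and Klk9, described above, was the 1 above it on all. Klk1b1 had the next smallest p, with 3.84 and 3.92 on the Glut1-deficient arrays, against 3.71 and 3.70 on the wild-type arrays, all below the floor. The Klk1b genes are near-identical copies of each other, so their rows may share signal. Klk1b3, Klk1b4 and Klk1b26 were not analysed here.

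Membrane serine proteases and the inhibitors of matriptase gave no call among 11 genes (median 0.01), with 2 at an unadjusted p under 0.05, no larger a share than over all rows. The adjusted p of both was close to the threshold. Tmprss13, a membrane protease of the epidermis, had 6.60 and 6.12 on the Glut1-deficient arrays, against 4.78 and 5.38 on the wild-type arrays (log2 difference 1.28, SE 0.26, limma adjusted p = 0.0504). Tmprss11e, another, had 8.19 and 9.09 on the Glut1-deficient arrays, against 10.90 and 10.11 on the wild-type arrays (log2 difference -1.86, SE 0.38, limma adjusted p = 0.0536). The matriptase inhibitor genes Spint1 and Spint2 had log2 differences of -0.03 and -0.01, and Prss8, encoding the matriptase partner prostasin, 0.41 (limma adjusted p = 0.928, 0.983 and 0.236).

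The plasminogen system moved in both directions. Plasmin and its activators also work at the keratinocyte surface. Of 7 genes analysed, 1 rose and 2 fell (median -0.01), where 7.22% of all rows and 14.4% of rows above the floor on all 4 arrays were called. Plau, which encodes the plasminogen activator urokinase, had 13.59 and 14.28 on the Glut1-deficient arrays, against 16.66 and 16.30 on the wild-type arrays, and fell by 2.54 (SE 0.26, limma adjusted p = 0.0122). Serpinb2, an inhibitor of urokinase, fell by 0.91 (adjusted p = 0.0272), and Plaur, the urokinase receptor gene, rose by 0.73 (adjusted p = 0.0372). Plau kept its call whichever array was left out. Serpinb2 lost its call when Glut1-deficient array 1 (adjusted p = 0.0925), wild-type array 1 (0.119) or wild-type array 2 (0.0805) was left out, in a span of 0.0179 to 0.123 over all alternatives. Plaur lost its own in each such fit (adjusted p from 0.0742 to 0.152).

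Of 16 other secreted protease inhibitors analysed 1 fell and none rose (median -0.08), a share near the 7.22% over all rows, and 11 of the 16 were at or below the floor on all arrays. Wfdc2, a whey acidic protein domain gene, had 6.08 and 6.01 on the Glut1-deficient arrays, against 7.48 and 7.06 on the wild-type arrays, and fell by 1.22 (SE 0.16, limma adjusted p = 0.0198). Leaving out Glut1-deficient array 1 (adjusted p = 0.0956), Glut1-deficient array 2 (0.0739) or wild-type array 1 (0.0559) ended the call, in a span of 0.0114 to 0.101 over all alternatives. Cst6, encoding the cysteine protease inhibitor cystatin M/E, had 5.38 and 5.50 on the Glut1-deficient arrays, against 4.82 and 5.03 on the wild-type arrays (log2 difference 0.52, 95% interval 0.21 to 0.82, limma adjusted p = 0.0705). All 11 other Spink genes of the list stayed without a call, with log2 differences from -0.36 to 0.12. Slpi and Wfdc21 were not analysed here.

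Desmosomes and corneodesmosomes, the junctions between keratinocytes, were represented by 17 genes. Kallikreins cut only some of the encoded proteins, so the counts are for junction genes and not for kallikrein targets. Of the 17 genes 5 rose and 12 did not pass, where 7.22% of all rows were called. Among rows above the floor on all 4 arrays the share called was 14.4%. Their median log2 fold change was 0.52. Cdsn, encoding the Klk7 substrate corneodesmosin, had 9.29 and 9.40 on the Glut1-deficient arrays, against 5.93 and 6.25 on the wild-type arrays, and rose by 3.25 (SE 0.14, limma adjusted p = 0.00219). It passed in every alternative fit. The desmosomal cadherin genes Dsc2, Dsg3, Dsc3 and Dsg1b rose by 1.16, 0.92, 0.84 and 0.94 (adjusted p = 0.0146, 0.0157, 0.0262 and 0.0401). Dsc2 lost its call when Glut1-deficient array 1 or wild-type array 1 was left out (adjusted p = 0.0652 in both fits, and at most 0.0884 in any alternative). Dsg3 lost its own in those fits (0.0780 and 0.0811) and when wild-type array 2 was left out (0.0531), in a span of 0.0107 to 0.0901. With any 1 array removed, Dsc3 and Dsg1b had an adjusted p of 0.0638 to 0.153 and no call, and Dsg1b had none after median centring either (0.0525). Dsc1, another substrate of Klk7, had 4.50 and 4.49 on the Glut1-deficient arrays, against 4.19 and 4.50 on the wild-type arrays. It was below the floor on all 4 arrays. Dsg1a, Dsg1b and Dsg1c are close copies, and their rows may share signal.

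Kallikreins and Spink5 are carried by lamellar granules, and 2 of 9 genes analysed of that machinery rose and 1 fell (median 0.26). For comparison, 7.22% of all rows were called, and 14.4% of rows above the floor on all 4 arrays. Abca12, the lipid transporter that fills the granules, had 14.16 and 14.04 on the Glut1-deficient arrays, against 9.31 and 9.29 on the wild-type arrays, and rose by 4.80 (SE 0.10, limma adjusted p = 0.000748). Vps33b, a trafficking gene of the granules, rose by 0.55 and Tmem79, which encodes the granule protein mattrin, fell by 0.70 (adjusted p = 0.0367 and 0.0192). The calls of Vps33b and Tmem79 were lost whichever array was left out (adjusted p from 0.0594 to 0.182), while that of Abca12 held in every alternative fit.

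Of 11 other proteases of cornification 1 rose and 10 did not pass (median -0.05). The called share is close to that over all rows, 7.22%, or over rows above the floor on all 4 arrays, 14.4%. At an unadjusted limma p under 0.05 there were 6 of the 11, in both directions, against 6720 of 30604 rows overall. The gene that passed was Asprv1, encoding an aspartic protease that processes filaggrin. It had 13.22 and 13.40 on the Glut1-deficient arrays, against 9.04 and 10.57 on the wild-type arrays. Asprv1 rose by 3.51 (SE 0.49, limma adjusted p = 0.0226). The wild-type arrays differed by 1.54, and the change was 2.74 without wild-type array 1 and 4.28 without wild-type array 2. Leaving out Glut1-deficient array 1 (adjusted p = 0.110) or 2 (0.0874) ended the call, in a span of 0.00375 to 0.110 over all alternatives. Of 7 other kallikrein targets and genes downstream of the protease receptor PAR2 none passed (median 0.02). At an unadjusted p under 0.05 there was 1, no larger a share than over all rows. That was the cytokine gene Tslp, with 5.63 and 5.52 on the Glut1-deficient arrays, against 5.22 and 5.36 on the wild-type arrays (log2 difference 0.28, limma adjusted p = 0.209). F2r, which encodes the thrombin receptor PAR1, had 9.01 and 9.50 on the Glut1-deficient arrays, against 9.01 and 8.57 on the wild-type arrays (log2 difference 0.47, limma adjusted p = 0.319). Ctsd and the PAR2 gene F2rl1 were not analysed here.

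**Figure D4:**
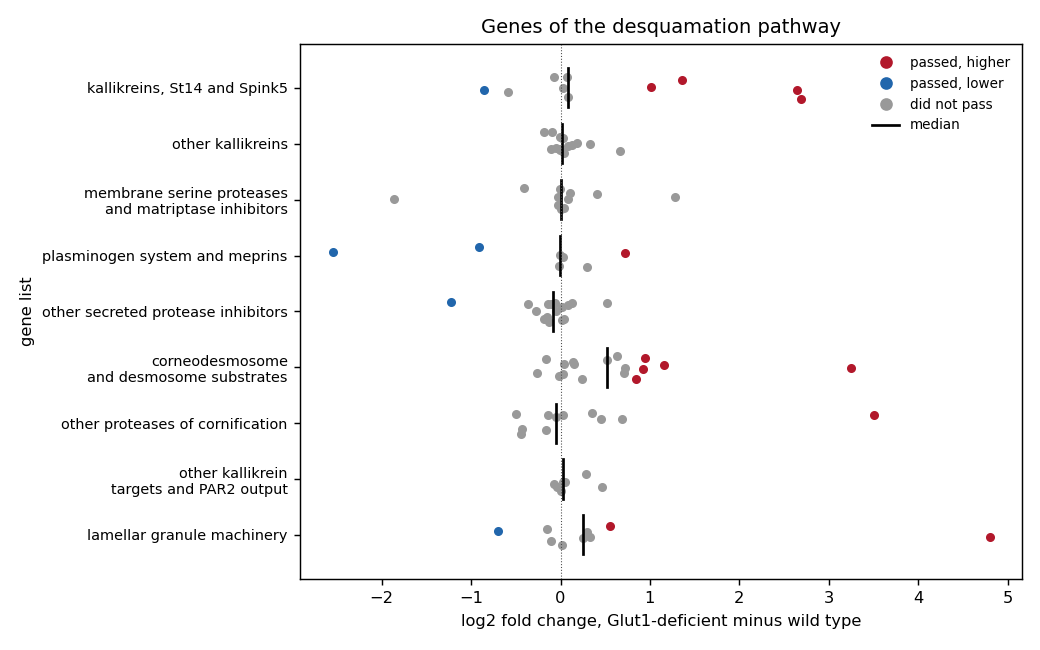
Log2 fold change, Glut1-deficient minus wild type, of every gene analysed in the kallikrein, St14 and Spink5 group and in 8 lists of related genes, with the list median as a black line. Red points passed as higher and blue as lower, and the vertical scatter within a list carries no meaning. The junction genes have the highest list median, at 0.52, and Abca12 at 4.80 and Asprv1 at 3.51 are the farthest points on the right.

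**Figure D5:**
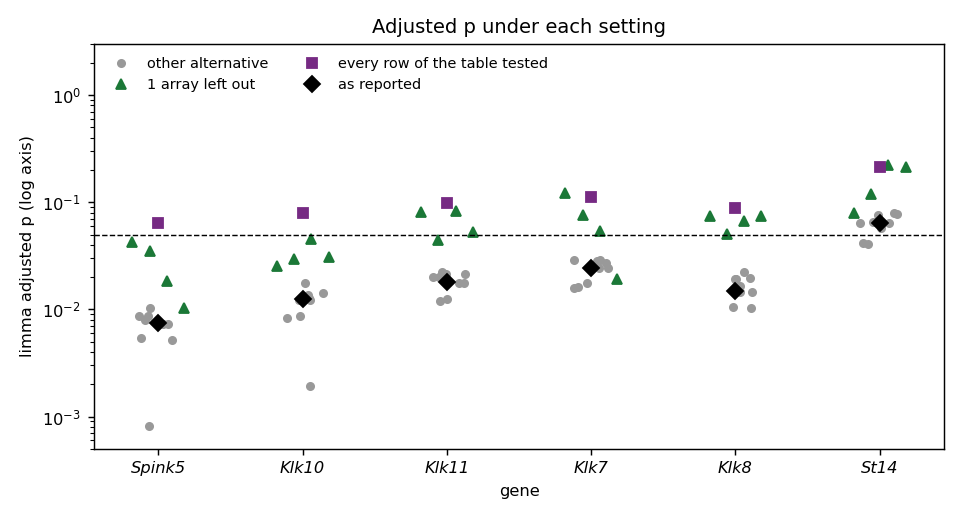
Limma adjusted p on a log axis for the 5 genes that passed and St14, as reported (diamonds), with 1 of the 4 arrays left out (triangles), with every row of the table tested (squares) and under the other alternatives (grey points). The dashed line is the threshold of 0.05. Spink5 and Klk10 stay under it whichever array is left out, and no gene is under it when every row of the table is tested.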

How the data were processed

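RNA of 4 pooled keratinocyte samples was measured on 1-colour arrays. The authors deposited 1 log2 signal for each transcript cluster and array, called gene-level SST-RMA per the labels, and the submitters' processing notes name Affymetrix Expression Console and RMA. They state no software version, annotation release or genome build. RMA subtracts background and brings the arrays to a common distribution, so a change common to most transcripts cannot be seen. SST-RMA also transforms the signal, so folds may differ from those of other measurements. Of 72688 rows, 30604 had 1 symbol in the platform table and 2146 had several. Symbols were updated through 22818 matched Entrez identifiers to RefSeq (GRCm38.p6), which was used for names and gene order. Rows with 1 symbol were compared with limma 3.58.1 (lmFit, eBayes) in R 4.3.3, two-sided, without a replicate block, with Benjamini-Hochberg adjustment over all 30604 rows. The brightest row stood for a gene. The fit was tested on simulated data. P-values measure only the spread between these pools of plates. Genes, lists and motifs were chosen with earlier results of these data known, and 131 of 142 listed genes were analysed. Named are the 10 genes, Slc2a1, up to 4 called genes of each list (otherwise the 2 with the smallest p), the keratinocyte markers and the 3 with the highest mean signal in each other marker list; further genes, such as Dsc1, Spint1, Spint2, Prss8, Cst6, Dsg1b and the markers below the floor, were named after their values were seen. The alternatives covered normalization, rows tested, filters on dim rows, variance moderation, a replicate block and each array left out.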

Additional observations from a re-analysis of the deposited data

How the results depend on the processing

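The call of Spink5 and of Klk10 held in 13 of 14 alternatives, and no called gene among the 10 changed direction in any. With every row of the table tested, control rows included, 0 of the 10 genes and 74 rows passed, which by construction includes 72688 rows in the adjustment. In that setting the lists of the plasminogen system, other secreted inhibitors and other proteases of cornification had 0 calls each, and the junction and lamellar granule lists 1 each. With dim rows left out by either filter, 2 membrane protease genes, 2 secreted inhibitor genes and 3 other proteases passed, and Klk5, Klk13 and Klk14 were not among the rows tested. With 1 row per gene, or the mean of a gene's rows, 1 membrane protease gene passed.

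With an array left out, 2 to 3 of the 10 genes and 314 to 1214 rows passed. Of the lists, 0 to 1 membrane protease gene, 1 to 2 plasminogen genes, 0 to 1 secreted inhibitor, 1 to 3 junction genes, 0 to 1 other protease and 1 lamellar granule gene passed. In such a fit the lone array is assumed to vary like the pair. Klk5, below background, ranged from -0.19 without Glut1-deficient replicate 1 to 0.25 without replicate 2, and Klk6 from -0.001 without Glut1-deficient replicate 2 to 0.18 without replicate 1, neither being called. The causes were not tested.

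With the replicate number as a block, 5 of the 10 genes and 1849 rows passed, 2 membrane protease genes gained a call, the junction genes with a call numbered 7 in place of 5, and Vps33b lost its own (adjusted p = 0.0743). Same-numbered arrays are of different genotypes and so of different mice, and plates were combined at random within each genotype. Deviations of same-numbered arrays from their group means correlated at -0.233 across rows, which are not independent replicates.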
